A study of Mus musculus with 6 samples.

Results

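Collagens and laminins were examined in medullary thymic epithelial cells of Aire-deficient (aire-/-) and wild-type mice. The members were all probe sets annotated with a single gene symbol of a collagen alpha chain or of a laminin alpha, beta or gamma chain: 58 of the 12422 probe sets used, standing for 40 of 8251 genes. They were 13 probe sets of fibrillar collagens, 5 of the basement membrane collagen IV, 26 of other collagens and 14 of laminins. The Aire-deficient group and the wild-type group each held 3 arrays, both on a B6/129 F2 background and from mice 3 to 5 weeks of age. Each array carried the RNA of 5 pooled thymi of both sexes. All pools were digested with collagenase and dispase and sorted by the same gate, as cells without CD45, positive for the epithelial antibody G8.8, intermediate for CDR1 and high for B7.1. The labels do not give which part of Aire was disrupted, and the loss is in the whole animal and not in the epithelium alone.

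Collagens are secreted proteins of 3 alpha chains wound into a triple helix. Fibrillar collagens, the bulk of which is made by fibroblasts, form the cables of connective tissue, while collagen IV forms the sheet on which epithelia and vessels rest. Laminins, cross-shaped trimers of an alpha, a beta and a gamma chain, are the other main polymer of that sheet and bind the integrins of the epithelial cell above it. Other collagens decorate fibrils, form beaded filaments, or anchor epithelium to the tissue beneath. In the thymus, epithelium lies on such a membrane at the capsule and around vessels, and Aire is known for allowing medullary epithelial cells to transcribe genes of many peripheral tissues.

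The single probe set of Aire gave normalized signals of 202, 297 and 211 on the Aire-deficient arrays and 59.9, 96.4 and 138 on the wild-type arrays, so it does not check the genotype labels. Its position within the gene is unknown here. The epithelial markers Krt8, Krt18, Epcam and Trp63 were above the dim limit on every array. Krt5 and Krt14, keratins of basal and medullary epithelium, lay under it on every array, so this part of the label could not be checked by them. That limit is a normalized signal of 5.53, the pooled 40th percentile in arbitrary units. RNA quality and amplification can be read from beta-actin, whose 3' over 5' signal was 4.38 to 13.4 on the Aire-deficient arrays and 5.42 to 95.8 on the wild-type arrays, the highest being wild-type array 2. Epcam, the epithelial adhesion molecule that the antibody G8.8 binds, averaged 89.2 in Aire-deficient and 197 in wild-type cells (limma adjusted p = 0.118, or 0.0315 with the replicate number as a block). Of 15 thymic epithelial probe sets 12 were tested and 0 passed without the block. At an unadjusted p under 0.05 there were 5 of these 12, against 14.2% of all probe sets tested. The summed signal of the 15 thymic epithelial probe sets was 3866 to 4638 on the Aire-deficient arrays and 3046 to 3645 on the wild-type arrays. Most of it came from the class II genes H2-Aa and H2-Ab1, so the sum says little of the other markers. H2-Aa alone gave 2331 on each Aire-deficient array and 1859 to 2045 on the wild-type arrays. Quantile normalization between arrays gives equal ranks equal values, so the repeated 2331 shows equal rank and not the precision of the replicates. Cd80, which encodes the sorting marker B7.1, gave 8.8, 13.1 and 11.8 on the Aire-deficient arrays in its leading probe set, against 3.52, 4.92 and 4.25 on the wild-type arrays, all under the dim limit (at least 2.00-fold higher, adjusted p = 0.152). This set passed the filter through the Aire-deficient arrays alone. A second tested set of Cd80 was above the dim limit on all 6 arrays, with overlap between the groups. It gave 12.5, 15.2 and 16.1 on the Aire-deficient arrays, against 5.78, 15.8 and 7.32 on the wild-type arrays (limma adjusted p = 0.482). Krt18 was 2.05-fold apart with overlap, its mean being 175 in Aire-deficient and 85.2 in wild-type cells (adjusted p = 0.225). Krt19 averaged 8.59 in Aire-deficient and 24.4 in wild-type cells in its leading probe set (adjusted p = 0.275, or 0.0366 with the block). H2-Ab1, a class II antigen-presenting chain, averaged 1131 in Aire-deficient and 652.6 in wild-type cells (adjusted p = 0.168). The part of these markers in the collagen and laminin results was not tested.

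Of the 58 members, 29 passed the filter, which asked for a signal above the dim limit on at least 3 of the 6 arrays, that is 50% against 62.5% of all 12422 probe sets. Among those that did not pass, 17 lay under the limit on all 6 arrays (29.3% of the 58, against 23.7% of all probe sets). The 29 tested probe sets stood for 24 genes, and 16 genes had no tested probe set. Among the 29 that were not tested, the highest signal on any array was 12.8. No member exceeded a signal of 119 on any array, the value of Col4a1 on wild-type array 2.

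**Figure D1:**
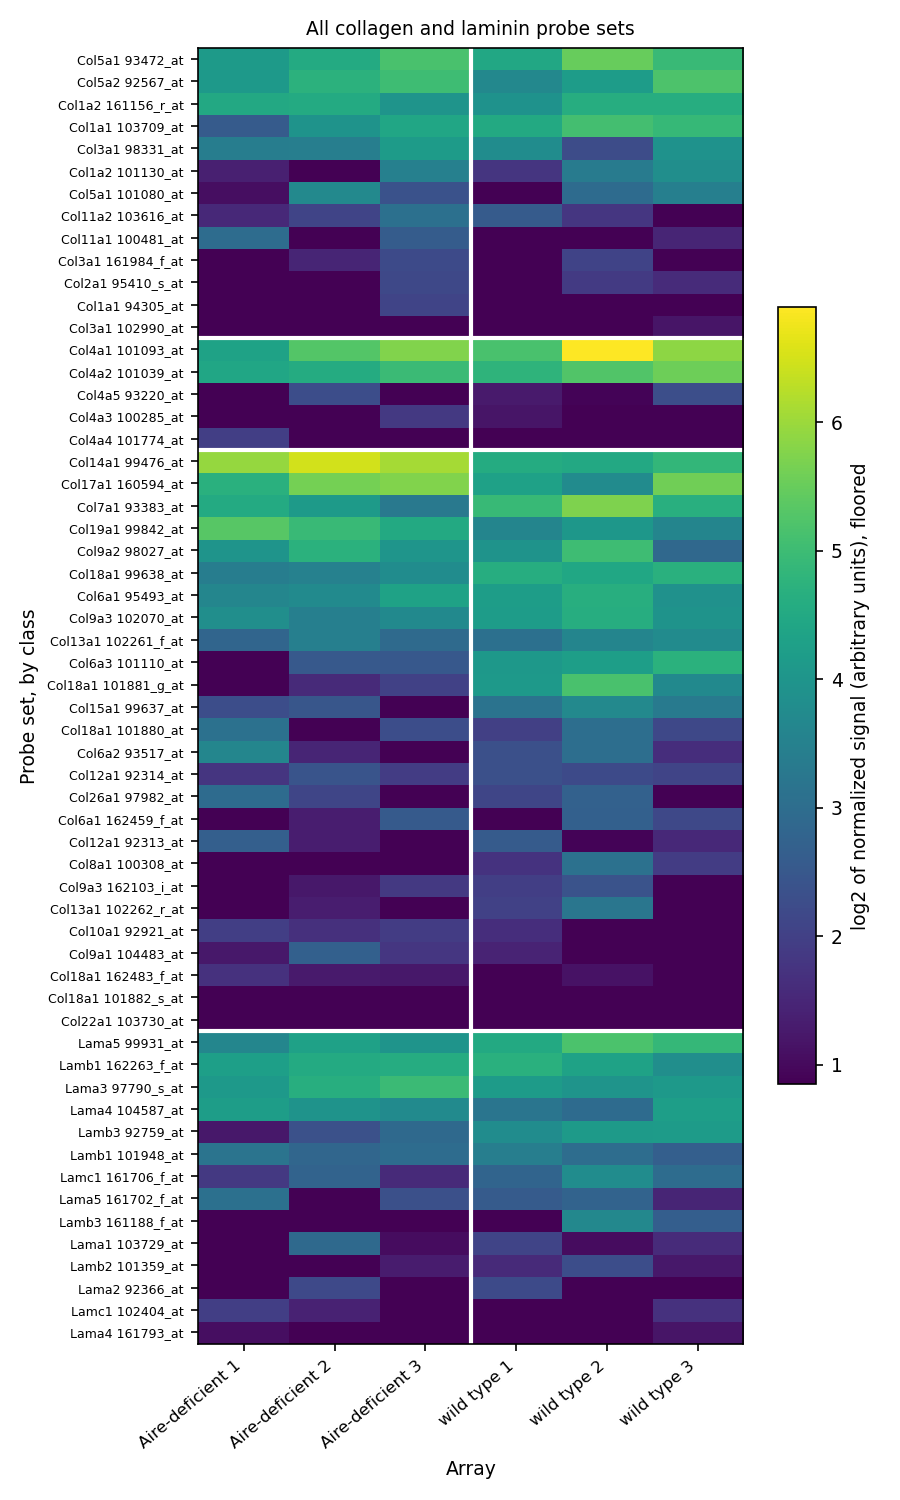
Heat map of the 58 collagen and laminin probe sets (rows, by class and then by mean signal) on the 3 Aire-deficient and 3 wild-type arrays (columns). Colour is log2 of the normalized signal in arbitrary units, with signals under 1.8 raised to 1.8, and in each class dim rows lie at the bottom.

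Over all probe sets tested, 1.73% passed the limma test at an adjusted p under 0.05 (134 of 7768), 1.38% lower (107) and 0.348% higher (27) in Aire-deficient cells. Of the 29 tested members 3 passed, namely Col6a3 and Col18a1 (lower) and Col14a1 (higher). All 3 belong to the other collagens, and no fibrillar collagen, collagen IV or laminin probe set passed. With the replicate number as a block 5 of the 29 passed, against 5.30% of all probe sets tested (3.37% lower and 1.93% higher). These were the same 3, the laminin chain Lamb3 (lower) and Col19a1 (higher). The groups did not overlap for 12 of the 29 tested members, 10 lower and 2 higher, against 20.5% of all probe sets tested (10.1% lower and 10.4% higher). Of these 8 lower and 2 higher were at least 2-fold apart, against 5.27% and 3.99% of all probe sets tested. A dim probe set passes the filter only through the arrays where it is bright, so these counts over the tested members are a description. At an unadjusted p under 0.05 there were 10 of the 29, against 14.2% of all probe sets tested.

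**Figure D2:**
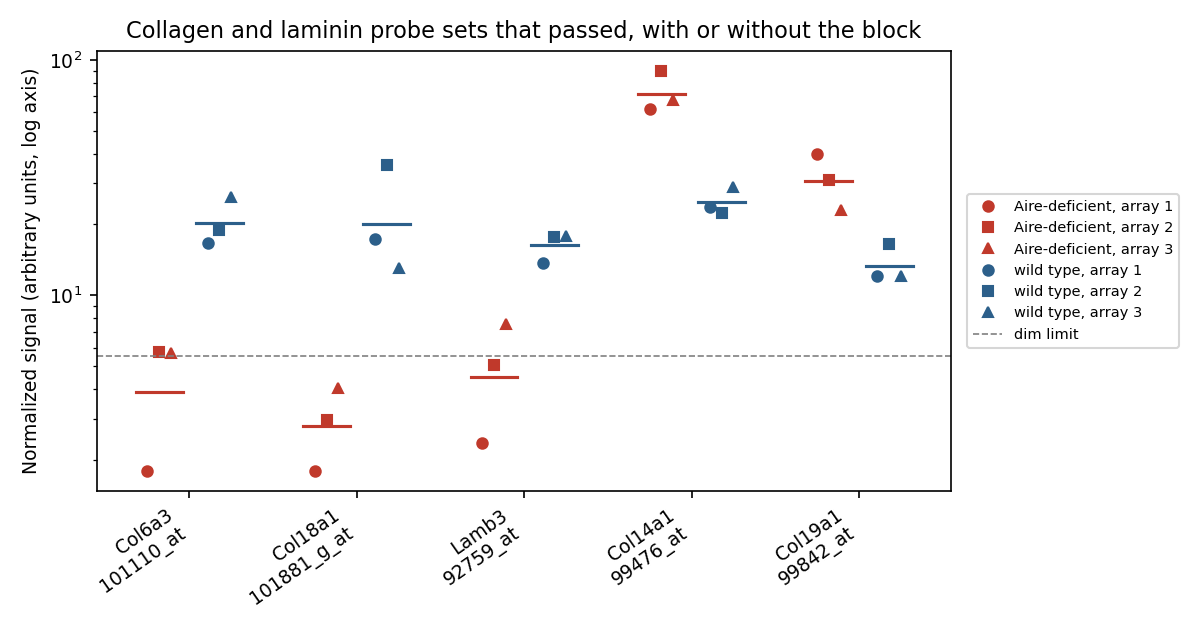
Normalized signal (arbitrary units, log axis) of the 5 member probe sets that passed with or without the replicate block, 1 symbol per array and a line at the geometric mean of each group. Col6a3, Col18a1 and Lamb3 lie lower on all 3 Aire-deficient arrays than on any wild-type array, and Col14a1 and Col19a1 lie higher; values under 1.8 are drawn at 1.8.

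Col6a3 encodes the alpha 3 chain of collagen VI, which forms beaded filaments around cells. Its signals were 1.13, 5.77 and 5.68 on the Aire-deficient arrays, against 16.8, 18.9 and 26.2 on the wild-type arrays. The groups did not overlap, and 1 Aire-deficient value lay under the dim limit with the other 2 just above it. The geometric means were 3.89 in Aire-deficient and 20.3 in wild-type cells, and the log2 difference was -2.38 ± 0.50 (SE, n = 3 arrays each, limma adjusted p = 0.0431). It was lower in all 3 same-number pairs, which follows from the lack of overlap and adds nothing to it. With a term for the 3' to 5' beta-actin ratio the log2 difference was -2.21 and the adjusted p 0.0916, and without any single array the adjusted p lay between 0.063 and 0.172.

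The promoter window of Col6a3 is shown because, of the collagens that fell, it has a single start in the table. The window runs from 250 bases before to 50 bases after the start (RefSeq, build GRCm38.p6, chr1:90843922-90844221, minus strand, printed 5′ to 3′ along the gene). It was searched on both strands for 3 motifs, none of which contains another. TATAAA, the TATA box, is held by 13.6% of the 32851 windows in the table. CCAAT, the CCAAT box, is held by 37.4%, and GGGCGG, the GC box, by 35.7%. This window holds none of them, so it has no capitals. It has 3 CG dinucleotides, with a median of 7 over all windows.
Col6a3: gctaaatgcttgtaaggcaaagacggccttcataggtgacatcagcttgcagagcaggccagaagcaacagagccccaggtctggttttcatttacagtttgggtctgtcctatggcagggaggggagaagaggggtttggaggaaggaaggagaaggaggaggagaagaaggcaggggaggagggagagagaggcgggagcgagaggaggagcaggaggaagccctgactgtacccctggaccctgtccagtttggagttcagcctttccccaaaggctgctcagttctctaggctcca

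The partner chains of Col6a3 did not pass. Col6a1, the alpha 1 chain, gave 12.4, 13.4 and 20.2 on the Aire-deficient arrays and 18.6, 24.9 and 14.9 on the wild-type arrays, with overlap between the groups (log2 difference -0.35 ± 0.35, adjusted p = 0.711). Its second probe set and that of Col6a2, the alpha 2 chain, were not tested: their signals lay between 1.02 and 6.48 and between 1.17 and 12.4. All 4 probe sets of these genes had the lower mean in Aire-deficient cells, and Col6a3 alone passed.

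Col18a1, a multiplexin of basement membranes whose end fragment is endostatin, was read by 5 probe sets. The probe set whose identifier has the suffix g (probes shared with another set of the same sequence) gave 0.683, 2.95 and 4.07 on the Aire-deficient arrays, against 17.4, 35.7 and 13.1 on the wild-type arrays. All 3 Aire-deficient values were under the dim limit and the groups did not overlap. The probe set thus passed the filter through the wild-type arrays alone, and without the filter its limma adjusted p was 0.154. The difference was at least 3.63-fold, the wild-type geometric mean of 20.1 divided by the dim limit, and the fitted log2 difference was -2.85 ± 0.51 (SE, n = 3 each, adjusted p = 0.0225). The other tested probe set gave 10.6, 11.4 and 13.9 on the Aire-deficient arrays, against 24.4, 21.9 and 25.9 on the wild-type arrays. These groups were separate as well, with a log2 difference of -1.01 ± 0.31 that missed the threshold (adjusted p = 0.152, or 0.0758 with the block).

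The other 3 probe sets of Col18a1 were not tested. The probe set annotated with the same source sequence as the g-suffixed set gave 8.6, 1.38 and 4.83 on the Aire-deficient arrays and 3.98, 8.18 and 4.45 on the wild-type arrays, with overlap. The remaining pair, with suffixes s and f, stayed between 0.917 and 3.25 on all arrays. The f-suffixed set was higher on the Aire-deficient arrays without overlap, though under the dim limit throughout. It gave 3.25, 2.45 and 2.37 there, against 1.17, 2.21 and 0.917 on the wild-type arrays. The call for Col18a1 thus rests on 1 of its 5 probe sets. Where each gene was read by its brightest probe set, that was the other tested set, and the gene did not pass (adjusted p = 0.135). Without Aire-deficient array 2 the adjusted p of the g-suffixed set was 0.0745. With each wild-type array left out in turn it no longer passed the filter, and with the filter of all 6 arrays kept its adjusted p was then 0.0571 to 0.106.

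RefSeq places 2 start sites of Col18a1 far apart, and both windows are shown because the probe sets of the gene disagreed. Capitals mark CCAAT or GGGCGG on either strand. The upstream window lies at chr10:77166481-77166780 (GRCm38.p6, minus strand) and holds 1 CCAAT and 3 GGGCGG matches. The downstream window at chr10:77113656-77113955 (minus strand) holds none of the 3 motifs. Which of these starts each probe set follows was not analysed here.
Col18a1 upstream: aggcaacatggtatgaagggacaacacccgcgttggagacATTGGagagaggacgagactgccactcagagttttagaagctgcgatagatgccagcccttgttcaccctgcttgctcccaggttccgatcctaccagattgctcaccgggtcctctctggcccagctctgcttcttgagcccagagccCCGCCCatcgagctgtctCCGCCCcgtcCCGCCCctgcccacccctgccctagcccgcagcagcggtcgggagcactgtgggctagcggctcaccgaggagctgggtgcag
Col18a1 downstream: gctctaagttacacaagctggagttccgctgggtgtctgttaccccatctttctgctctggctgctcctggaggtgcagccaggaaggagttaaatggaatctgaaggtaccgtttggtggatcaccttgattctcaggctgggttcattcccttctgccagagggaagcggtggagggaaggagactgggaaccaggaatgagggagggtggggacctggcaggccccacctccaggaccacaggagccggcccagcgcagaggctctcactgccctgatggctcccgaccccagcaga

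Col15a1, the other multiplexin of vascular and epithelial basement membrane zones, gave 4.87, 5.53 and 1.57 on the Aire-deficient arrays, against 8.83, 12.9 and 10.1 on the wild-type arrays. No wild-type value reached down to the Aire-deficient ones. No Aire-deficient value was above the dim limit, so the probe set passed the filter through the wild-type arrays alone, and only a bound of at least 1.89-fold lower can be given. The test did not pass (adjusted p = 0.224, or 0.115 with the block).

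**Figure D3:**
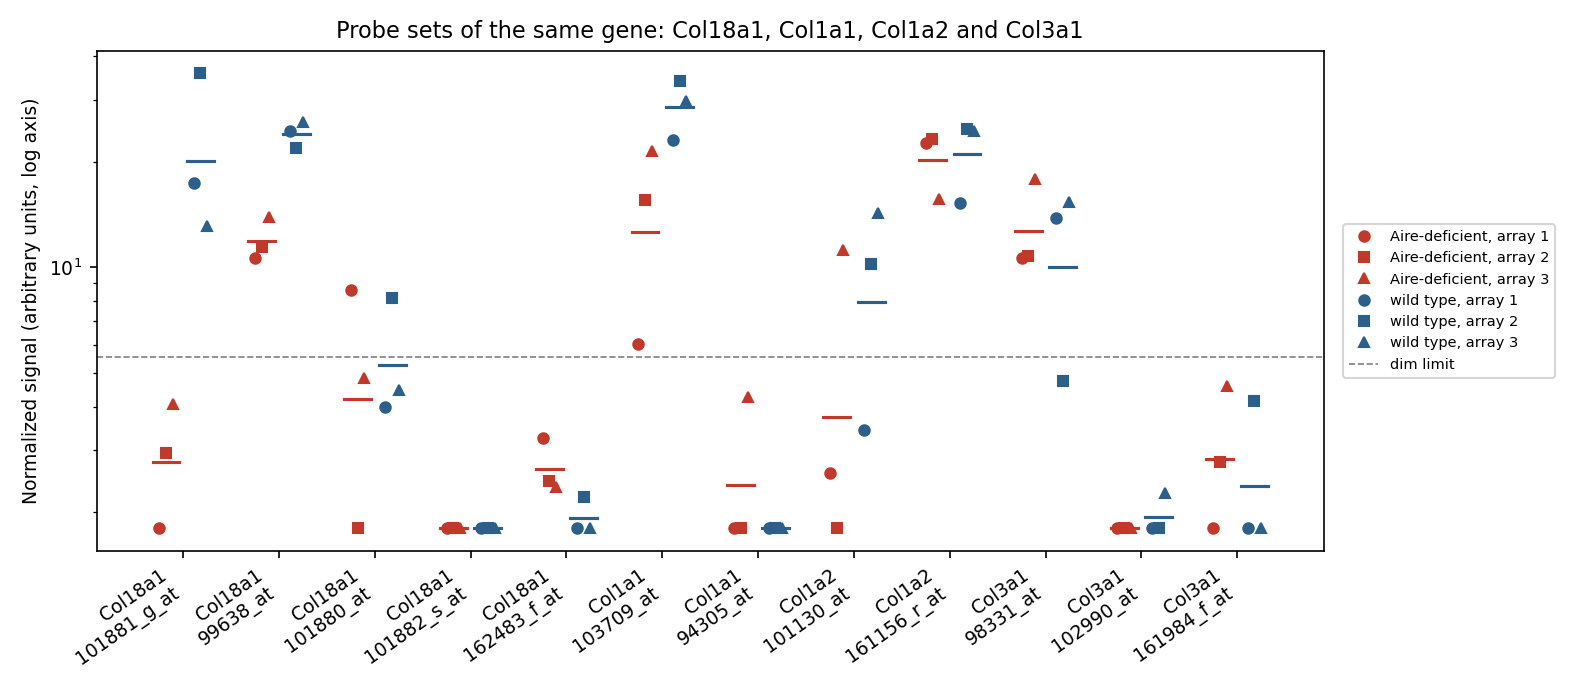
Normalized signal (arbitrary units, log axis) of all 12 probe sets of Col18a1, Col1a1, Col1a2 and Col3a1, 1 symbol per array, with lines at the group geometric means and the dim limit dashed. Signals under 1.8 are drawn at 1.8. Of the tested sets, the g-suffixed and 1 other set of Col18a1 and 1 set of Col1a1 separate the groups. Other sets of Col18a1, Col1a1 and Col3a1 lie under or near the dim limit.

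Col14a1 was the member that rose. It encodes a fibril-associated collagen that coats the surface of collagen I fibrils. Its signals were 61.5, 89.8 and 67.2 on the Aire-deficient arrays, against 23.7, 22.4 and 28.8 on the wild-type arrays. Every Aire-deficient value was above every wild-type value, and no value was near the dim limit. The geometric means were 71.9 in Aire-deficient cells (SD 0.29 on the log2 scale) and 24.9 in wild-type cells (SD 0.19), a 2.89-fold difference (log2 1.53 ± 0.31 SE, n = 3 each, adjusted p = 0.0345). Leaving out any single array gave log2 differences of 1.37 to 1.64 with adjusted p between 0.0656 and 0.205.

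Col19a1, a fibril-associated collagen of basement membrane zones, was also higher on all Aire-deficient arrays. It gave 40.02, 30.9 and 23 there, against 12.1, 16.5 and 12.1 on the wild-type arrays. The log2 difference was 1.19 ± 0.34, with an adjusted p of 0.119 that missed the threshold and of 0.0481 with the block. Col9a1, its neighbour on chromosome 1 with no protein-coding gene between them in GRCm38.p6, was too dim to be tested (1.67 to 6.53).

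The other fibril-associated collagens that were tested did not pass. For Col9a3, a chain of the cartilage collagen IX, signals were 14.2, 11 and 13.1 on the Aire-deficient arrays and 18.3, 24.6 and 15.6 on the wild-type arrays, without overlap (log2 difference -0.59 ± 0.33, adjusted p = 0.461). For Col9a2, another chain of that trimer, they were 15.9, 26.3 and 16.1 in Aire-deficient cells, against 15.5, 32.5 and 7.4 in wild type, with overlap (0.28 ± 0.50, adjusted p = 0.849). Both probe sets of Col12a1 and that of Col22a1 were not tested, and neither was that of Col26a1, which is not counted among the fibril-associated collagens. The cartilage collagen genes Col2a1, Col10a1, Col11a1 and Col11a2 were not tested either, with no signal above 8.48. The cartilage genes Acan, Matn1, Matn3 and Hapln1 lay under the dim limit on all arrays.

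Col8a1, a short-chain collagen of vessels and the cornea, had no tested probe set but separate groups. It gave 0.917, 0.817 and 1.05 on the Aire-deficient arrays, all under the floor of 1.8, and 3.35, 8.62 and 3.77 on the wild-type arrays. A single array lay above the dim limit. Col8a1 was the 1 untested member lower without overlap, and 2 were higher without overlap. These were Col10a1 and the f-suffixed set of Col18a1, both under the dim limit on all arrays. Col10a1 gave 3.91, 3.23 and 3.82 on the Aire-deficient arrays, against 3.13, 1.2 and 0.467 on the wild-type arrays.

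No fibrillar collagen passed. Of their 13 probe sets 7 were tested and 0 passed (limma). At an unadjusted p under 0.05 there was 1, against 14.2% of all probe sets tested. The log2 differences ran from -1.18 to 0.34 with a median of -0.06, against 0.05 over all probe sets tested, and 5 of the 7 were below 0. With a term for 3' bias the median was 0.05, and without wild-type array 1 it was -0.61.

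Collagen I is the main collagen of connective tissue. The tested probe set of Col1a1 gave 6.02, 15.6 and 21.4 on the Aire-deficient arrays, against 23.1, 34.0 and 29.7 on the wild-type arrays. The groups lay close but did not overlap, and the log2 difference of -1.18 ± 0.46 did not pass (adjusted p = 0.269, or 0.0696 with the block). The second probe set of Col1a1 stayed between 0.3 and 4.25. For Col1a2, the partner chain, the probe set without a suffix gave 2.58, 1.17 and 11.2 on the Aire-deficient arrays, against 3.43, 10.2 and 14.3 in wild type. The set with suffix r (some design rules dropped) gave 22.6, 23.2 and 15.7 on the Aire-deficient arrays, against 15.2, 24.7 and 24.4 in wild type. Their log2 differences were -1.09 ± 0.77 and -0.06 ± 0.34 (adjusted p = 0.574 and 0.961), and the groups overlapped in both.

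Collagens III and V, which assemble with collagen I, showed overlap in every tested probe set. Col3a1 gave 10.6, 10.8 and 17.9 on the Aire-deficient arrays and 13.8, 4.73 and 15.4 on the wild-type arrays (log2 difference 0.34 ± 0.48, adjusted p = 0.804). Its other 2 probe sets were not tested, with no signal above 4.59. Col5a2, the neighbour of Col3a1 on chromosome 1, gave 17.3, 26.6 and 32.2 on the Aire-deficient arrays, against 12.8, 18.2 and 37.0 in wild type (0.26 ± 0.43, adjusted p = 0.836). The probe sets of Col5a1 had log2 differences of -0.35 ± 0.38 and -0.04 ± 0.82 (adjusted p = 0.737 and 0.989).

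**Figure D4:**
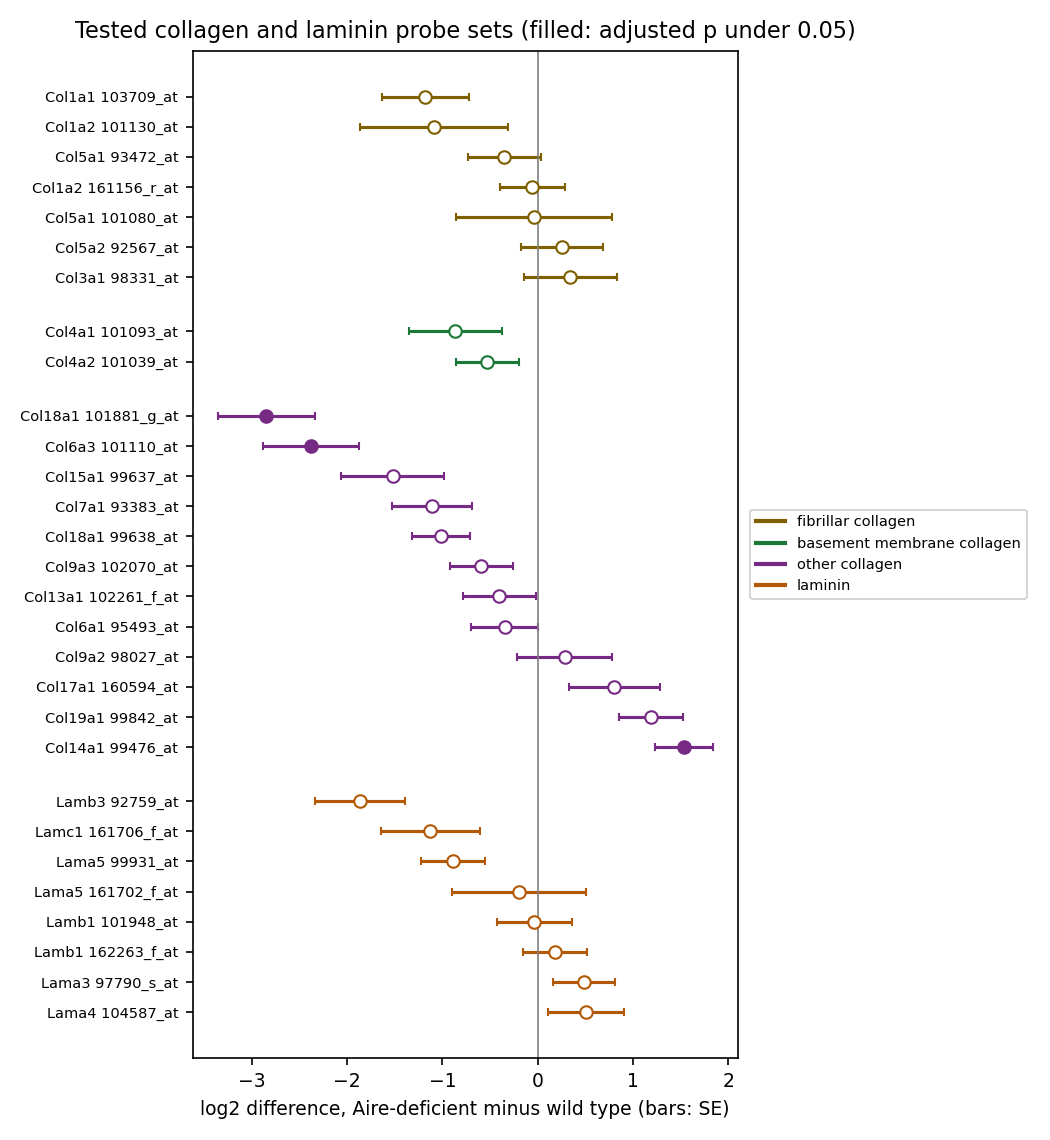
Log2 difference of Aire-deficient minus wild-type signal for the 29 tested probe sets, with bars for the SE, grouped by class and sorted within it. Filled symbols mark the 3 probe sets with an adjusted p under 0.05; the other collagens span -2.85 to 1.53 and the fibrillar collagens -1.18 to 0.34.

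The chains of collagen IV that epithelia and vessels share were lower on average without passing. Col4a1 gave 20.04, 38.5 and 53.4 on the Aire-deficient arrays, against 35.9, 119 and 58.2 on the wild-type arrays. Col4a2 gave 21.6, 23.9 and 31.5 in Aire-deficient cells, against 27.6, 37.9 and 46.9 in wild type. The groups overlapped for both, and wild-type array 2, which had the highest 3' to 5' ratio, was the highest array for Col4a1. The log2 differences were -0.86 ± 0.49 and -0.53 ± 0.33 (adjusted p = 0.469 and 0.512), and -0.19 for Col4a1 with a term for the 3' to 5' ratio. Both were lower in all 3 same-number pairs. Col4a3, Col4a4 and Col4a5, chains of the kidney glomerulus and other specialised membranes, lay under the dim limit on all 6 arrays, with no signal above 4.97.

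Col4a1 and Col4a2 lie head to head on chromosome 8, and their promoter windows are shown because the genes share this region. In RefSeq (GRCm38.p6) the starts lie at 11312826 (Col4a1, minus strand) and 11312805 (Col4a2, plus strand), with 20 bases between them. Each start lies inside the other gene, so the genes overlap at their 5′ ends and no gap parts them. The windows share 78 bases, marked in capitals, which read as the reverse complement of each other. The windows lie at chr8:11312777-11313076 (minus strand, Col4a1) and chr8:11312555-11312854 (plus strand, Col4a2). They hold 37 and 33 CG dinucleotides, more than 94.4% and 91.4% of all windows have. Neither holds TATAAA, and both hold 1 CCAAT, with 1 GGGCGG match for Col4a1 and 3 for Col4a2, counted on both strands.
Col4a1: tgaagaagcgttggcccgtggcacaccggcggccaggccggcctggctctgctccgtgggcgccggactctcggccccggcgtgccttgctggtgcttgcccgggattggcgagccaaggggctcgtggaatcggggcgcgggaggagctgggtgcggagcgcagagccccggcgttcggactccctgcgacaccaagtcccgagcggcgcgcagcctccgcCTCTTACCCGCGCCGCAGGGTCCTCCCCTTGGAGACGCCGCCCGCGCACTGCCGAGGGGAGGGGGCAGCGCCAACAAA
Col4a2: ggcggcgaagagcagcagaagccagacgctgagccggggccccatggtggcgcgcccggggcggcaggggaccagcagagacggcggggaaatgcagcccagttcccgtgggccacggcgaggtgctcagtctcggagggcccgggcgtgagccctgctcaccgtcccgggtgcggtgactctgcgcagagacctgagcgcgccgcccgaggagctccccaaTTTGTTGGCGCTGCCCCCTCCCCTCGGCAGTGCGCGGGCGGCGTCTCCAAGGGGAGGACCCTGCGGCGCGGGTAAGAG

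Of 14 laminin probe sets 8 were tested, and 0 passed without the block. At an unadjusted p under 0.05 there were 2 laminin probe sets, against 14.2% of all probe sets tested. The median log2 difference was -0.11, and the range was -1.86 to 0.51. Lamb3 had the lowest value. It encodes the beta 3 chain of the epithelial laminin that joins hemidesmosomes to the membrane below. Its signals were 2.37, 5.09 and 7.53 on the Aire-deficient arrays, against 13.8, 17.8 and 17.9 on the wild-type arrays. The Aire-deficient and wild-type values were separate, and 2 of the 3 Aire-deficient values were under the dim limit. The log2 difference was -1.86 ± 0.47 (adjusted p = 0.0832), and with the block it passed (adjusted p = 0.024). A second probe set of Lamb3, not tested, gave 0.683, 1.47 and 1.68 in Aire-deficient cells, against 1.63, 12.8 and 6.32 in wild type.

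Lama3, the alpha chain that pairs with Lamb3 in that laminin, had a difference of the opposite sign that did not pass. It gave 17.5, 24.8 and 31.2 on the Aire-deficient arrays and 18, 15.8 and 17.4 on the wild-type arrays (log2 difference 0.49 ± 0.33, adjusted p = 0.548). The groups overlapped through the first Aire-deficient array.

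Of the other proteins of epithelial anchorage none passed, and their differences had both signs. Col7a1, the collagen of anchoring fibrils, gave 23.5, 17.7 and 9.75 on the Aire-deficient arrays, against 30.2, 53.3 and 25.4 on the wild-type arrays. These groups were separate, but the log2 difference of -1.11 ± 0.42 did not pass (adjusted p = 0.254, or 0.0714 with the block). Col17a1, the transmembrane collagen of hemidesmosomes, gave 25.8, 49.8 and 53.5 in Aire-deficient cells, against 19.8, 13.6 and 48.0 in wild type. Wild-type array 3 lay among the Aire-deficient values, and the difference of 0.81 ± 0.48 did not pass (adjusted p = 0.495). Col13a1, a transmembrane collagen of cell contacts, had a difference of -0.40 ± 0.38 (adjusted p = 0.69).

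The chains of the broadly distributed basement membrane laminin were Lama5, Lamb1 and Lamc1. For Lama5, the probe set without a suffix gave 12.4, 19.8 and 15.8 on the Aire-deficient arrays, against 23.1, 36.3 and 29.4 on the wild-type arrays. The groups did not overlap, so all 3 same-number pairs had to be lower, here by nearly the same amount (-0.89, -0.88 and -0.89). The log2 difference of -0.89 ± 0.33 did not pass (limma adjusted p = 0.255, or 0.101 with the block). Its set with suffix f (probes of a sequence family) overlapped between the groups (-0.19 ± 0.70, adjusted p = 0.932). Lamc1 gave 3.62, 6.78 and 2.98 in Aire-deficient cells, against 6.9, 13.9 and 7.93 in wild type, without overlap, in its set with suffix f (-1.13 ± 0.52, adjusted p = 0.355). The other set of Lamc1 was dim on all arrays, with means of 2.67 in Aire-deficient and 2.19 in wild-type cells. Lamb1 had log2 differences of -0.04 ± 0.39 and 0.19 ± 0.34 in its probe sets (adjusted p = 0.98 and 0.851), with overlap in both.

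Lama4, an alpha chain of vessel walls, gave 18.6, 15.6 and 13.4 on the Aire-deficient arrays and 9.13, 7.83 and 18.8 on the wild-type arrays (0.51 ± 0.40, adjusted p = 0.616). Wild-type array 3 exceeded all Aire-deficient arrays. Lama1, Lama2 and Lamb2, chains of embryonic, muscle and nerve-associated membranes, were not tested, and no signal of theirs exceeded 7.48.

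**Figure D5:**
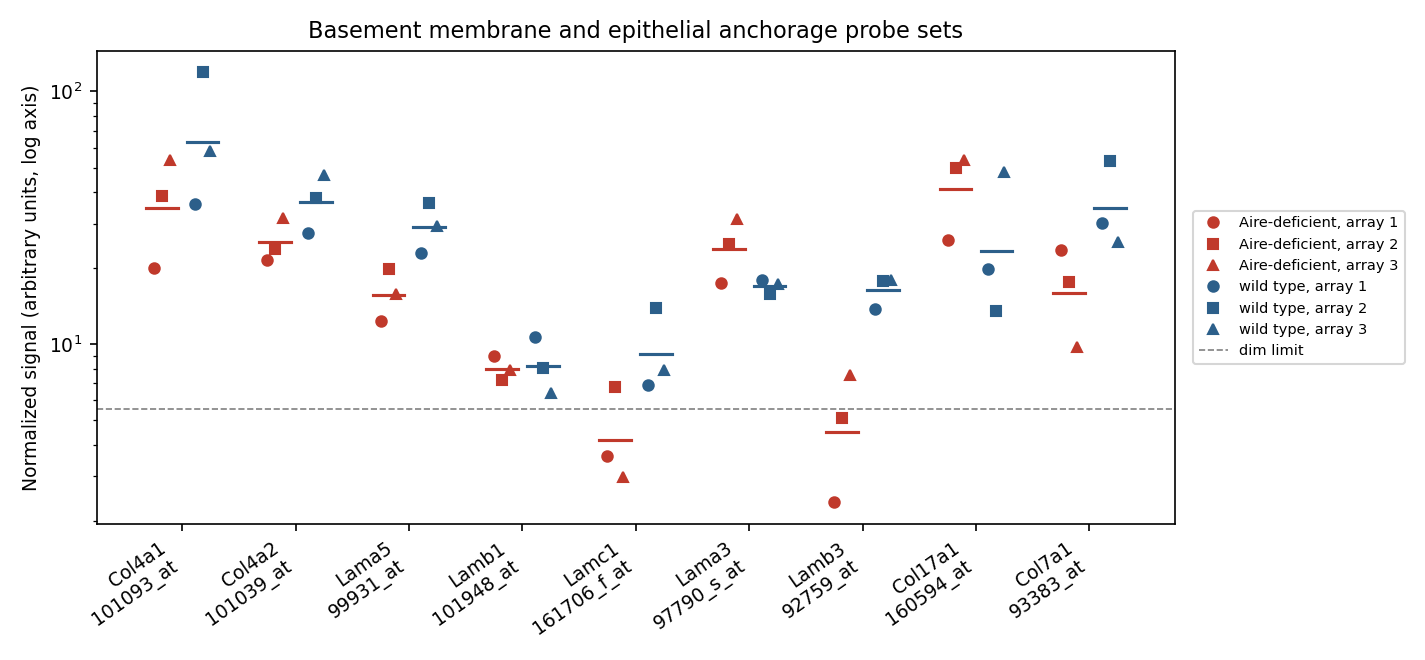
Normalized signal (arbitrary units, log axis) of 9 probe sets of basement membrane and epithelial anchorage genes, 1 symbol per array and a line at the geometric mean of each group, with the dim limit dashed. The groups are separate for Lama5, Lamc1, Lamb3 and Col7a1, all lower in Aire-deficient cells, and overlap for Col4a1, Col4a2, Lamb1, Lama3 and Col17a1.

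Genes that make, bind or sense these proteins showed no call without the block. For comparison, 14.2% of all probe sets tested had an unadjusted p under 0.05. Of 21 probe sets for enzymes and chaperones of collagen synthesis and crosslinking, 13 were tested and 0 passed (limma, 2 at an unadjusted p under 0.05), with a median log2 difference of 0.11. P4ha1, a catalytic subunit of prolyl hydroxylase, gave 18.6, 18.6 and 25.1 on the Aire-deficient arrays, against 5.6, 8.5 and 13.5 on the wild-type arrays (1.25 ± 0.39, adjusted p = 0.162). Serpinh1, the collagen chaperone of the endoplasmic reticulum, gave 14.6, 3.9 and 6.02 in Aire-deficient cells, against 14.9, 16.6 and 12.7 in wild type (-1.07 ± 0.48, adjusted p = 0.35). Ppib, a prolyl isomerase that helps the helix fold, had a difference of 0.63 ± 0.33 (adjusted p = 0.439).

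Among partners in the basement membrane, 9 of 15 probe sets were tested and 0 passed without the block (1 at an unadjusted p under 0.05), with a median of -0.19. Npnt, nephronectin, a membrane ligand of an integrin, gave 48.0, 55.6 and 38.3 on the Aire-deficient arrays, against 14.5, 11.6 and 27.4 on the wild-type arrays. The groups did not overlap, and the difference of 1.49 ± 0.38 had an adjusted p of 0.0832, or 0.0317 with the block. Sparc, a collagen-binding glycoprotein, had a difference of -1.20 ± 0.58 and Fbln1, a fibulin, of -0.82 ± 0.42 in its leading probe set (adjusted p = 0.382 and 0.423).

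Of 19 probe sets for receptors of collagen and laminin, 13 were tested and 0 passed (2 at an unadjusted p under 0.05), with a median of -0.29. Cd151, a tetraspanin that binds laminin-binding integrins, gave 23.1, 20.1 and 26.9 in Aire-deficient cells in its leading probe set. In wild type this set gave 50.2, 47.5 and 35.6 (-0.92 ± 0.31, limma adjusted p = 0.195). The groups overlapped in its r-suffixed set and in another f-suffixed set (-0.53 and -0.43, limma adjusted p = 0.601 and 0.621). A further set was not tested, with no signal above 0.767. Itga6, the alpha chain of such integrins, gave 83.4, 70.9 and 64.4 in Aire-deficient cells, against 50.3, 38.3 and 41.1 in wild type (0.76 ± 0.29, adjusted p = 0.269). Dag1, dystroglycan, had differences of -0.64 ± 0.32 and -0.63 ± 0.51 in its probe sets (limma adjusted p = 0.403 and 0.63).

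Markers of other cells that make these proteins were read on the same arrays. Fewer cells of a type and less RNA per cell cannot be told apart in such pools. Of 21 fibroblast and mesenchyme probe sets 11 were tested, and 1 was lower and 1 higher. Among all probe sets tested 1.38% were lower and 0.348% higher. Acta2, smooth muscle actin, was lower at 0.917, 2.45 and 6.42 on the Aire-deficient arrays, against 15.8, 34.7 and 24.1 on the wild-type arrays (adjusted p = 0.0234). S100a4, a calcium-binding protein of fibroblasts and other motile cells, was higher at 107, 110 and 89.7 in Aire-deficient cells, against 34.2, 35.2 and 37.2 in wild type (adjusted p = 0.0267). The summed signal of the list was 372 to 482 on the Aire-deficient arrays and 288 to 520 on the wild-type arrays. Most of it came from Dcn, S100a4 and Fn1, so the sum says little of the other markers. Of the 21 probe sets 6 lay under the dim limit on all arrays, among them those of Twist1, Prrx1 and Dpt. Dcn gave 102, 240 and 136 in Aire-deficient cells, against 72.8, 231 and 38.2 in wild type.

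Of 15 endothelial probe sets 7 were tested and 0 passed (1 at an unadjusted p under 0.05, against 14.2% of all tested). Their summed signal was 82.6 to 106 on the Aire-deficient arrays and 81.6 to 131 on the wild-type arrays. Pecam1 and Vwf, from this endothelial list, were above the dim limit on all arrays in 1 probe set each. The second set of Vwf was at or below 2.58. Cdh5 ran from 0.683 to 7.5, Kdr and Cldn5 were at or below 6.88, and Tie1 and Emcn at or below 5.62. Flt1, a receptor for vascular growth factors, had 2 tested probe sets. The first gave 9.13, 2.25 and 4.25 on the Aire-deficient arrays and 19.7, 26.1 and 5.33 on the wild-type arrays, with overlap (-1.66 ± 0.67, unadjusted p = 0.0318, limma adjusted p = 0.289). The second gave 8.26, 9.07 and 7.93 on the Aire-deficient arrays and 11.4, 12.2 and 13.5 on the wild-type arrays, without overlap (-0.55 ± 0.34, adjusted p = 0.505). For 14 blood cell probe sets, 8 tested and 0 called (1 at an unadjusted p under 0.05), the sums were 87.8 to 139 on the Aire-deficient arrays and 113 to 114 on the wild-type arrays. The part of these markers in the results on Col6a3, Col18a1, Col14a1, Lamb3 and Col19a1 was not tested.

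No members that lie side by side in the genome shared a call, but not all of them were tested and calls were rare. In GRCm38.p6 the neighbouring pairs were Col9a1 and Col19a1, Col3a1 and Col5a2, and Col4a3 and Col4a4 on chromosome 1, Col4a1 and Col4a2 on chromosome 8, and Col6a1 and Col6a2 on chromosome 10, with 0 protein-coding genes between. Col18a1 follows Col6a1 on chromosome 10 with 2 such genes between. Of these genes Col18a1 alone passed in the fit without the block, where 1.73% of all probe sets tested passed. Col9a1, Col6a2, Col4a3 and Col4a4 had no tested probe set, so their pairs could not share a call. Col4a3 with Col4a4 were dim on all arrays.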

How the data were processed

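The deposited table holds a linear intensity per probe set for each of 6 single-colour arrays; which software, background correction and scaling the authors used is not stated in the labels. Per the labels, RNA went through 2 rounds of T7 amplification before hybridisation. Trimmed means of the deposited intensities ran from 19.6 to 26.9 per array. The number of arrays, 3 per group, limits the precision. The 66 control probe sets were left out of the 12488 in the table. Of the 12422 used, 10833 had a single gene symbol in GEO's platform annotation, 396 several and 1193 none.

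Intensities were quantile-normalized between arrays, raised to a floor of 1.8 (the pooled 20th percentile) and put on the log2 scale. The 7768 probe sets that exceeded the dim limit (pooled 40th percentile) on 3 or more arrays were fitted with limma 3.58.1 in R 4.3.3 (lmFit, eBayes with trend), with Benjamini-Hochberg adjustment over all of them and a threshold of 0.05. The fit was tested on simulated data. Plots used matplotlib 3.10.9 under Python 3.11.15. Mean signals are geometric means.

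Groups and replicate numbers came from the labels. Deviations of same-number arrays from their group means correlated at 0.193 to 0.372, and those of other pairs at -0.253 to 0.068, so the numbers were taken as pairing the arrays, and a fit with the number as a block was made as an alternative. What a number stands for is not stated in the labels. The other alternatives were scaling, floor, filter, variance model, array weights, 1 probe set per gene, a term for 3' bias, and leaving out each array. Leaving out arrays with the probe sets of the 6-array filter kept was added after seeing the data.

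The members and gene lists were chosen with earlier results of these data known. Named probe sets were those that passed, those at least 2-fold different without overlap, in each class the 5 with the smallest p and the 3 brightest, other probe sets of the same genes, and up to 3 per pathway list. Of the 40 member genes 27 had a promoter window in the RefSeq table of GRCm38.p6, which was also used for gene names and neighbours.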

Additional observations from a re-analysis of the deposited data

How the results depend on the processing

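The calls rest on few arrays and on low signals. Col6a3, Col14a1 and the g-suffixed set of Col18a1 kept their direction in every alternative that tested them. The calls of Col6a3 and Col14a1 were lost in 16 of 23 and 14 of 23 alternatives, with adjusted p from 0.00601 to 0.231 and 0.0103 to 0.205. The call of the g-suffixed set was lost in 6 of the 19 alternatives that tested it, with adjusted p from 0.00639 to 0.154. That set was not tested, and so not called, where each gene was read by its brightest probe set. The same held with each wild-type array left out in turn and the filter run again. Its count is thus not comparable with those of Col6a3 and Col14a1. Lamb3 also passed with the floor at the 40th percentile (adjusted p = 0.0399), but not with array weights (0.0553) or with the block and the 3' bias term together (0.062), and over all its alternatives the adjusted p ran from 0.024 to 0.277. Col19a1 also passed with array weights (0.0496) and with the block and the 3' bias term together (0.0458), with a range of 0.0458 to 0.354.

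Over all probe sets, 107 were lower and 27 higher in Aire-deficient cells. With the replicate block these counts were 262 and 150, and with the 3' bias term and the replicate block 217 and 112. Array weights gave 166 and 72, and no filter gave 10 and 6. On the deposited values they were 102 and 71, with a median log2 difference over all probe sets of 0.17, and with median scaling 97 and 55. Leaving out 1 array gave 3 to 79 lower and 1 to 16 higher.

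Among the members, 2 lower and 1 higher, the lower count was 1 with the floor at the 10th percentile, without the trend, with 1 probe set per gene and with the 3' bias term, and 0 without the filter, where the adjusted p of limma was 0.231 for Col6a3, 0.154 for Col18a1 and 0.0861 for Col14a1. The higher count was 0 without the filter and without the trend, and 2 with array weights, with the replicate block and with the 3' bias term and block. Leaving out 1 array gave 0 to 1 lower and 0 to 0 higher. With any 1 of the wild-type arrays left out and the filter run again, no member passed in limma. The replicate block changed the calls of Lamb3 and Col19a1 and no other member's call.

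The median log2 difference of laminins, -0.11, was -0.35 with 1 probe set per gene, 0.12 with the 3' bias term and block, and -0.41 to 0.16 with 1 array left out. With 1 array left out that of fibrillar collagens was -0.606 to 0.056, of collagen IV -1.002 to -0.44 and of other collagens -0.63 to -0.25. The cause of these shifts was not tested.

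Some probe sets that did not pass changed sign. The r-suffixed set of Col1a2 was 0.066 on the deposited values, 0.067 with median scaling and 0.055 with the 3' bias term. The set of Col5a1 with the main difference of -0.04 was 0.343 with the floor at the 10th percentile, 0.2 with array weights and 0.545 with the 3' bias term, where its other set was 0.073. The tested set of Col3a1 was -0.02 with array weights, -0.073 with the 3' bias term and -0.122 with that term and the block. The f-suffixed set of Lama5 was 0.066 with the floor at the 40th percentile and 0.79 with the bias term and block. The unsuffixed set of Lamb1 was 0.01 with array weights and 0.047 with the bias term and block.

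With 1 array left out, log2 differences ran from -0.286 to 0.127 for the r-suffixed set of Col1a2, -0.822 to 0.614 for the set of Col5a1 with the main difference of -0.04, -0.196 to 0.653 for the tested set of Col3a1, -0.079 to 0.685 for Col5a2, -0.692 to 0.426 for the f-suffixed set of Lama5, -0.216 to 0.157 for the unsuffixed set of Lamb1, -0.044 to 0.391 for the f-suffixed set of Lamb1 and -0.252 to 0.816 for Col9a2.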
